A study of Mus musculus with 20 samples.

Results

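The Zscan4 cluster and the Tcstv genes of the mouse were followed by mRNA sequencing through 3 stages of preimplantation development. The members were the 7 genes listed by these symbols, Zscan4a, Zscan4b, Zscan4c, Zscan4d, Zscan4f, Tcstv1 and Tcstv3, among 24411 genes in all. They were taken from the files by symbol, with no threshold on a measured value. All 7 passed the filter on low counts in every fit. The members are near-identical copies within each family, so reads may be shared among them. A value for 1 copy is therefore less certain than the sum over its family. Reads of Tcstv1 and Tcstv3 may also be shared with genes outside their sum, so this sum is itself less certain.

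Zscan4 proteins carry a SCAN domain, through which such proteins bind each other, and zinc fingers that bind DNA. The family is transcribed in a burst at the 2-cell stage, when the mouse embryo begins its own transcription (zygotic genome activation), and in short pulses in rare embryonic stem cells that resemble 2-cell embryos, where it is known for telomere lengthening. Tcstv1 and Tcstv3, named for the 2-cell-stage variable group, encode small proteins that are expressed at the same stage and have likewise been linked to telomere length in mouse embryonic stem cells.

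RNA came from 16 pools of 10 in vitro produced embryos each, cultured in KSOM medium. In a knockdown, fertilised one-cell embryos were electroporated with small interfering RNA against Pcgf5 (siPcgf5) or with control siRNA (siControl), and 2 pools per group were taken 36 hours after insemination, as late 2-cell embryos, and 2 at 72 hours, as morulae. In a knockout, 4-cell embryos were collected 48 hours after insemination with a homozygous deletion of the MT2C_Mm repeat at Pcgf5 (Homo KO, 3 pools), a heterozygous one (Hetero KO, 3 pools) or none (WT, 2 pools). MT2C_Mm is a retroviral long terminal repeat related to MERVL, the element whose transcripts mark the 2-cell stage, and the series title asks how Pcgf5 driven by MERVL bears on the shutdown of zygotic genome activation. No electroporation is named for the 4-cell embryos, so a comparison of the 4-cell stage with the other stages is also one between experiments. The strain of the embryos and the number of deletion lines are not given in the sources used here. Nothing states that the pools of a group came from separate fertilisations, so the spread behind each p-value may be partly technical.

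Pcgf5 (chr19:36348329-36460970), a subunit of a variant Polycomb complex that ubiquitinates histone H2A, had 59.1 and 103 TPM in siPcgf5 late 2-cell embryos, against 397 and 931 TPM in siControl. TPM scale the transcripts of a library to a common total and give a level per transcript length. At the morula it had 24.3 and 19.3 TPM in siPcgf5 and 146 and 99.3 TPM in siControl. The 4-cell embryos held 171, 199 and 158 TPM in Homo KO, 331, 248 and 250 TPM in Hetero KO and 339 and 254 TPM in WT. Every siPcgf5 library lay below every siControl library of its stage and every Homo KO library below every Hetero KO and WT library, but Pcgf5 did not pass the test across all genes. Its log2 fold change was -2.96 (SE 0.443, edgeR adjusted p = 0.0789) at the late 2-cell stage, -2.53 (SE 0.436, edgeR adjusted p = 0.242) at the morula and -0.72 (SE 0.185, edgeR adjusted p = 0.236) in Homo KO against WT. Summed counts per library ran from 14310634 to 55620137. Genes that mark the late 2-cell stage (Zfp352, Usp17lc, Tdpoz4 and Obox3) summed to 1569 to 3031 TPM in the 4 late 2-cell libraries, and to at most 19.6 TPM at the morula. Morula markers (Cdx2, Tfap2c, Krt8, Krt18, Gata3, Cldn4 and Sox2) summed to 92.3 to 148 TPM there and to at most 44.5 TPM elsewhere. By late 2-cell markers, WT 4-cell replicate 2 stood apart, with a sum of 30.7 TPM against 233 TPM in replicate 1. The lowest such sum of the late 2-cell stage was 1569 TPM, in siControl replicate 1. Over all genes, the siControl late 2-cell libraries differed more from each other than any other pair within a group. The chi-square per gene between their counts was 165, against 42.7 to 71.1 in the other pairs. Cumulus and granulosa cell markers summed to at most 39.6 TPM and sperm markers to at most 77.9 TPM in any library.

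The 5 Zscan4 members lie on chromosome 7 between 10794241 and 11402318 of the assembly GRCm38.p6, over 608 kb. RefSeq lists 30 genes in this span, of which 7 carry a Zscan4 symbol, the other two being the pseudogenes Zscan4e and Zscan4-ps1. Zscan4a (chr7:10794241-10799065) is annotated as a transcribed pseudogene. Zscan4b (chr7:10900740-10905050), Zscan4c (chr7:11005745-11010547), Zscan4d (chr7:11161643-11166148) and Zscan4f (chr7:11397915-11402318) are annotated as protein coding. Tcstv1 (chr13:119893387-119894785) and Tcstv3 (chr13:120316862-120318261) are both protein coding and lie within 425 kb on chromosome 13.

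Promoters of 4 members, Zscan4b, Zscan4c, Zscan4d and Zscan4f, were found in RefSeq's table for GRCm38.p6. They are shown to let the copies be compared base by base around the TATA box. Each window holds 150 bases on the gene's own strand, set so that the TATA box falls at the same place. The box begins 31 bases before the annotated start in Zscan4f and Zscan4b, 54 before it in Zscan4c and 65 before it in Zscan4d, so the windows of Zscan4c and Zscan4d end short of the annotated start. Capitals in Zscan4f mark the TATA box, and capitals in the other three mark bases that differ from Zscan4f.
Zscan4f, chr7:11397774-11397923, plus strand: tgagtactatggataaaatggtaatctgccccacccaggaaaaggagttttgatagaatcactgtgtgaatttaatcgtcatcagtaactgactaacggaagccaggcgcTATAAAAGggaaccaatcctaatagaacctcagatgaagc
Zscan4c, chr7:11005581-11005730, plus strand: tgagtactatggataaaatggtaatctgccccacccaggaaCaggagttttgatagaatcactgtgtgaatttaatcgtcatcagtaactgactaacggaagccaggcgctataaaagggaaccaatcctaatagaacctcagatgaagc
Zscan4d, chr7:11166174-11166323, minus strand: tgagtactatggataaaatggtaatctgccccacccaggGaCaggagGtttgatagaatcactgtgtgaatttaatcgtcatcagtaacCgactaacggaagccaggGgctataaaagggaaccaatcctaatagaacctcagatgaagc
Zscan4b, chr7:10905042-10905191, minus strand: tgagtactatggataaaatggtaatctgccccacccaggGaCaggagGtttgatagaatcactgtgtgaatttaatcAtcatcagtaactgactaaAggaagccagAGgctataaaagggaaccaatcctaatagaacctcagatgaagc

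Against Zscan4f, the Zscan4c window differed at 1 base, the Zscan4d window at 5 and the Zscan4b window at 7. Over the overlapping part of the 300-base promoters, identity ran from 95.3% (Zscan4b with Zscan4c) to 99.3% (Zscan4c with Zscan4f, 2 mismatches in 277 aligned bases). The longest run that all 4 shared without a difference was 55 bases, beginning at the bases GC before the TATA box, and no other promoter held it among 32851 searched. The letters TATAAA, searched on both strands, were in 4 of 4 member promoters and in 13.6% of all promoters of the same length. TAATCC, the core bound by paired-like homeodomain factors such as the Obox proteins, was in 0 of 4 member promoters and in 7.06% of all, again on both strands. These counts say only which letters stand in these windows.

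At the late 2-cell stage Zscan4f, Zscan4c and Zscan4d were among the abundant mRNAs of the embryo. Zscan4f, which encodes a full-length family protein, had 708 and 1140 TPM in siPcgf5 and 639 and 586 TPM in siControl libraries, and ranked between 143 and 333 among 24411 genes in the 4 libraries. Zscan4c, the copy best known from embryonic stem cells, had 433 and 592 TPM in siPcgf5 and 322 and 378 TPM in siControl. Zscan4d, the copy best known from 2-cell embryos, had 398 and 425 TPM in siPcgf5 and 215 and 282 TPM in siControl. The order Zscan4f, Zscan4c, Zscan4d held in each of the 4 libraries.

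Zscan4a had 153 and 164 TPM in siPcgf5 and 62.9 and 102 TPM in siControl late 2-cell embryos. Zscan4b, which encodes a shortened protein, had 36.3 and 48.2 TPM in siPcgf5 and 39.5 and 25.3 TPM in siControl, and was the lowest member in all 4 libraries, at ranks between 2429 and 3550. Tcstv3 had 200 and 360 TPM in siPcgf5 and 154 and 184 TPM in siControl. Tcstv1 had 145 and 122 TPM in siPcgf5 and 133 and 90.2 TPM in siControl, below Tcstv3 in each library. In siControl the neighbours Tcstv1 and Tcstv3 lay close, at 112 ± 30.3 and 169 ± 21.0 TPM (SD, n = 2), as did Tcstv1 and Zscan4a, at 82.4 ± 27.7 TPM (SD, n = 2).

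**Figure D1:**
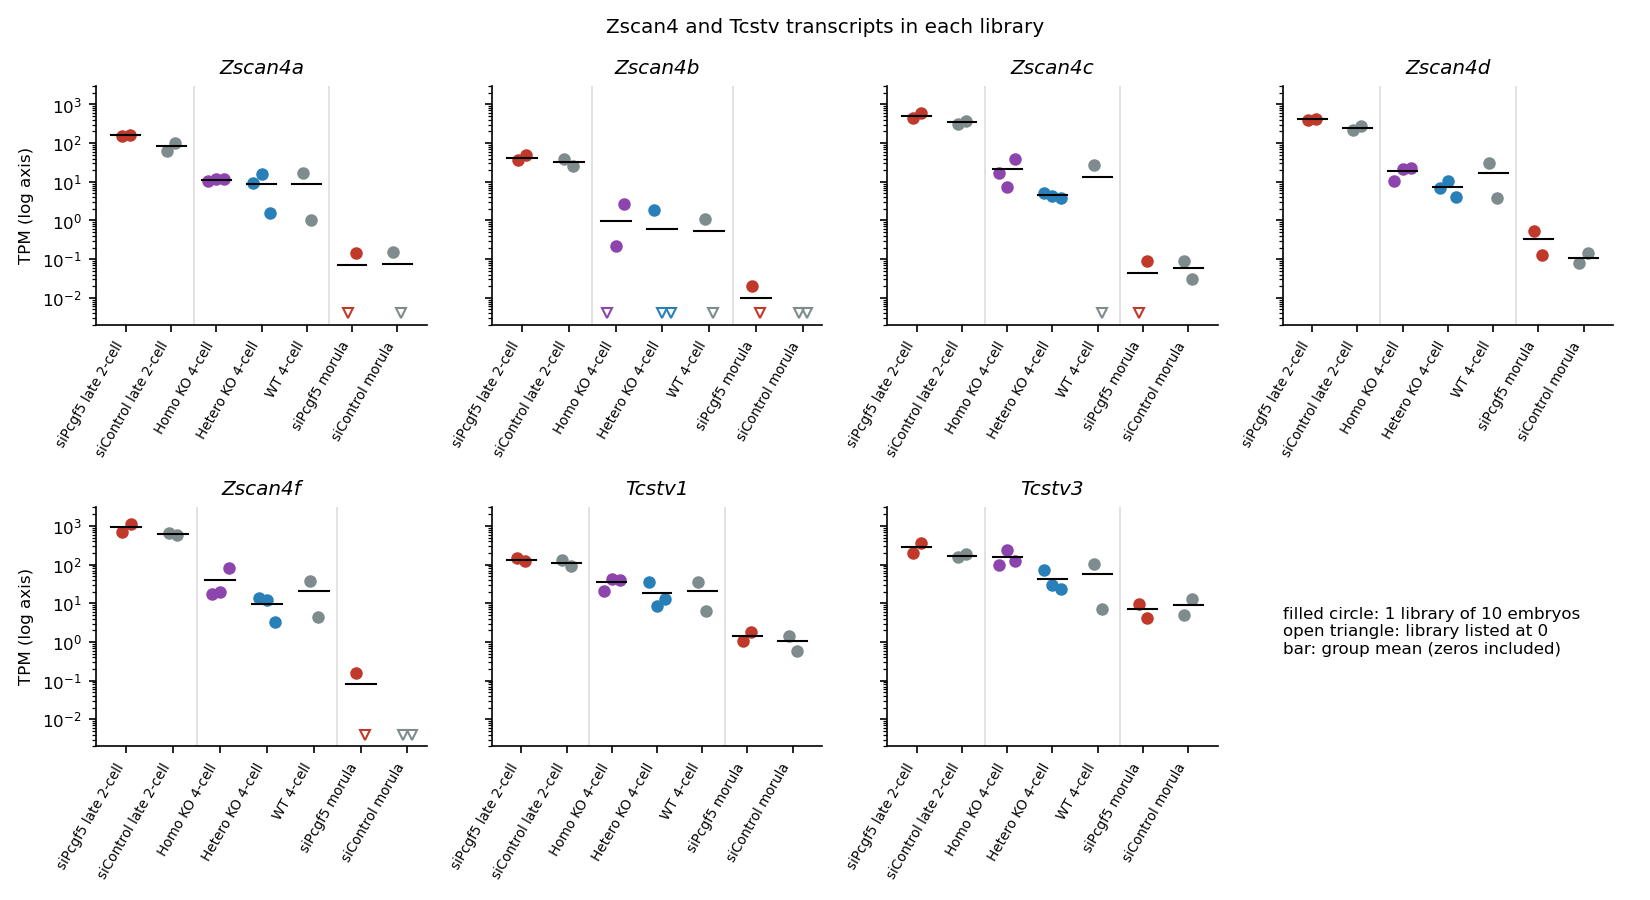
Level of each member in every library, in TPM on a log axis, with 1 point per library and the groups ordered by stage. The Zscan4 members stand between 25.3 and 1140 TPM at the late 2-cell stage, between 0 and 84.0 TPM at the 4-cell stage and at most at 0.52 TPM at the morula, while Tcstv3 is still at 4.27 to 13.3 TPM at the morula.

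The summed level of the 5 Zscan4 members, in which the split of shared reads among the copies matters only through their differing lengths, was 1278 and 1374 TPM in siControl late 2-cell embryos, 112 and 9.31 TPM in WT 4-cell embryos and 0.32 and 0.17 TPM in siControl morulae. The summed level of Tcstv1 and Tcstv3 was 287 and 274 TPM, then 142 and 13.3 TPM, then 6.41 and 13.9 TPM at the same stages. Relative to the siControl late 2-cell mean, WT 4-cell embryos held 4.56% of the Zscan4 sum and 27.6% of the Tcstv sum, and siControl morulae held 0.0185% and 3.62% of them. WT 4-cell replicate 1 held 12.0 times the Zscan4 sum and 10.7 times the Tcstv sum of replicate 2. In pooled embryos, fewer cells that transcribe these genes and less mRNA per cell cannot be told apart.

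The ratio of the Tcstv sum to the Zscan4 sum was 0.199 to 0.225 in the 4 late 2-cell libraries, 0.868 to 4.64 in the 8 4-cell libraries and 15.2 to 81.8 in the 4 morula libraries. These ranges did not overlap. At the morula the Zscan4 sums rest on few reads, since no Zscan4 member exceeded 35.3 counts in a morula library.

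**Figure D2:**
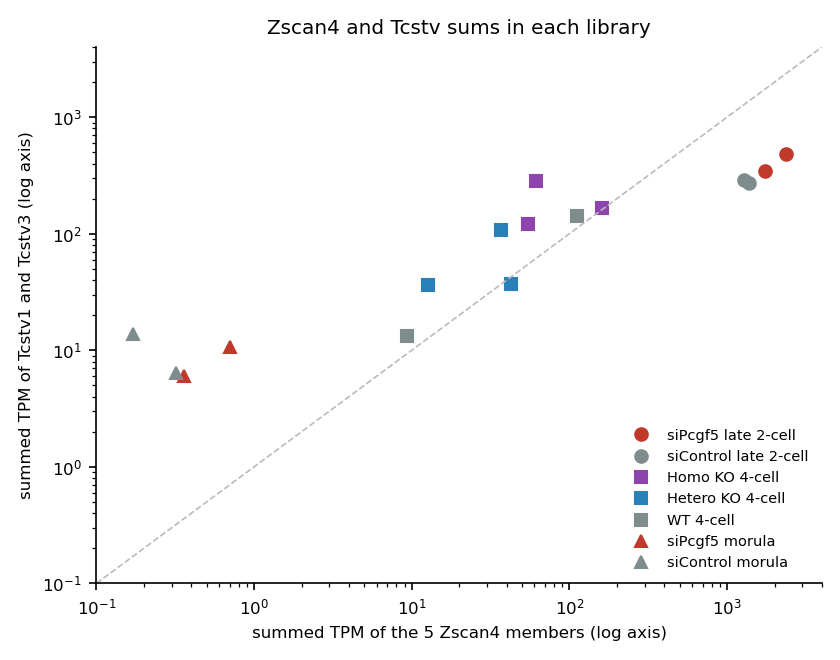
Summed TPM of the 5 Zscan4 members and of the 2 Tcstv members in each library, on log axes, with 1 point per library. The Zscan4 sum lies at 1278 to 2369 TPM at the late 2-cell stage and at 0.17 to 0.70 TPM at the morula, and WT 4-cell replicate 2 lies at 9.31 TPM, the lowest of its stage.

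In siControl embryos all 7 members were lower in morulae than at the late 2-cell stage, in a test in which 28.1% of 16980 genes were lower (edgeR quasi-likelihood test, Benjamini-Hochberg adjusted over all genes). The median log2 fold change of the members was -10.10, against -0.34 over all genes tested. Morulae had no read of Zscan4f or Zscan4b in either siControl library. With 3 counts as the floor, Zscan4f was at least 16343-fold and Zscan4b at least 855-fold lower in siControl morulae, by the assigned counts. These folds hold only if none of the remaining Zscan4 reads belongs to these 2 copies, which was not tested. Zscan4c had 0.09 and 0.03 TPM in siControl morulae, a log2 fold change of -11.52 (SE 0.668, edgeR adjusted p = 1.19e-06).

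Zscan4d, at 0.08 and 0.14 TPM in siControl morulae, changed by -10.10 (SE 0.598, edgeR adjusted p = 1.19e-06) on the log2 scale. Zscan4a, at 0.15 and 0 TPM, changed by -9.03 (SE 1.02, edgeR adjusted p = 0.000108). The Tcstv genes fell less far. Tcstv1 had 1.47 and 0.60 TPM in siControl morulae, with a log2 fold change of -5.70 (SE 0.480, edgeR adjusted p = 5.82e-06). Tcstv3 had 4.94 and 13.3 TPM there, with a log2 fold change of -3.17 (SE 0.522, edgeR adjusted p = 0.000580). The difference between the Zscan4 and the Tcstv falls was not tested.

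The same 7 members were lower in siPcgf5 morulae than in siPcgf5 late 2-cell embryos, where 28.2% of all genes were lower. Their median log2 fold change was -10.06, against -0.38 over all genes. Zscan4b was at 1 assigned count over both siPcgf5 morula libraries. By the assigned counts, siPcgf5 late 2-cell embryos held 3415 times as much (95% Poisson interval 613 to 134881, counting error only). Zscan4c changed by -12.28 (SE 0.684) and Tcstv3 by -4.48 (SE 0.555) on the log2 scale, with edgeR adjusted p-values of 1.11e-06 and 9.23e-05.

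The 4-cell libraries divide this fall into steps, with the limit that stage and experiment cannot be told apart. In WT 4-cell against siControl late 2-cell embryos, fitted over all 16 libraries, 3 of 7 members passed as lower, against 15.2% of 16669 genes. The groups did not overlap for any of the 7, all lower at the 4-cell stage, as for 38.9% of all genes. Those that passed were Zscan4d, with a log2 fold change of -3.64 (SE 0.812, edgeR adjusted p = 0.00570), Zscan4f, with -4.64 (SE 1.23, edgeR adjusted p = 0.0189), and Tcstv1, with -2.15 (SE 0.710, edgeR adjusted p = 0.0314).

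The values that did not pass were -4.49 (SE 1.58) for Zscan4c, -5.66 (SE 2.21) for Zscan4b, -3.01 (SE 1.28) for Zscan4a and -1.35 (SE 0.967) for Tcstv3, with edgeR adjusted p between 0.0534 and 0.303. The count rests on single libraries. It was 6 without WT 4-cell replicate 1, 1 without siControl late 2-cell replicate 1. Tested by limma, on log2(TPM + 1), it was 7, where limma called 5229 of all 16669 genes lower and edgeR 2526. Without WT 4-cell replicate 2, Zscan4f and Tcstv1 no longer passed, with log2 fold changes of -3.85 and -1.44.

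In siControl morulae against WT 4-cell embryos, 5 of 7 members passed as lower, against 15.3% of all genes. Zscan4d changed by -6.46 (SE 1.01, edgeR adjusted p = 0.000623), Zscan4a by -6.01 (SE 1.62, edgeR adjusted p = 0.0181), Zscan4c by -7.03 (SE 2.01, edgeR adjusted p = 0.0246) and Tcstv1 by -3.56 (SE 0.775, edgeR adjusted p = 0.00301). Zscan4f, with no read assigned to it in the morulae, passed, and was at least 646-fold lower by the assigned counts. Zscan4b had 20 counts over both WT libraries and 0 over both morula libraries. By these counts Zscan4b was at least 15.8-fold lower, and it did not pass (edgeR adjusted p = 0.197).

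Tcstv3 did not pass either, at -1.83 (SE 0.987, edgeR adjusted p = 0.189), and its siControl morula values of 4.94 and 13.3 TPM overlapped the WT 4-cell values of 106 and 6.93 TPM. Zscan4c also overlapped, since it was listed at 0 in WT 4-cell replicate 2. Without WT 4-cell replicate 1 only 2 members passed, Zscan4c had a log2 fold change of 5.10, and the Tcstv sum had a log2 ratio of 0.19 in place of -2.14. In a fit of only the groups compared, 3 members passed as lower, where 2415 of all 16669 genes did.

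After Pcgf5 knockdown, the late 2-cell levels of all 7 members were higher by the fitted values, but no member passed the test. In siPcgf5 against siControl late 2-cell embryos 0 of 7 members were called, against 0.0118% of 16980 genes (edgeR quasi-likelihood test, adjusted p between 0.889 and 1). None of the 7 had an unadjusted edgeR p under 0.05, and DESeq2 and limma also called 0 of 7. In normalised counts (TMM-scaled CPM) the siPcgf5 libraries lay above the siControl libraries for all 7 members, as they did for 15.5% of all genes. In TPM, Zscan4b and Tcstv1 overlapped, through siPcgf5 values of 36.3 and 122 TPM against siControl values of 39.5 and 133 TPM.

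The log2 fold change was 0.70 (SE 0.462) for Zscan4f, 0.65 (SE 0.398) for Zscan4c and 0.82 (SE 0.381) for Zscan4d. For Zscan4a it was 1.03 (SE 0.670) and for Zscan4b 0.50 (SE 0.355). For Tcstv3 it was 0.85 (SE 0.480) and for Tcstv1 0.40 (SE 0.380). The median over the members was 0.70, against -0.01 over all genes tested. The Zscan4 sum was 1729 and 2369 TPM in siPcgf5 and 1278 and 1374 TPM in siControl libraries, so that the siPcgf5 mean was 155% of the siControl mean. The Tcstv sum was 344 and 482 TPM in siPcgf5 and 287 and 274 TPM in siControl, or 147%.

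Late 2-cell markers summed to 2543 and 2871 TPM in siPcgf5 and to 1569 and 3031 TPM in siControl libraries, and so overlapped. Oocyte markers (Zp2, Zp3, Gdf9, Bmp15, Oog1, Omt2b and Oosp1), whose maternal mRNA is cleared as the embryo develops, summed to 36304 and 36935 TPM in siPcgf5 and to 43211 and 25239 TPM in siControl. Blood markers summed to 1305 to 1447 TPM in siPcgf5 and to 1081 to 1146 TPM in siControl, without overlap, while cumulus and sperm markers overlapped. Their part in the result was not tested. A log2 change of 1 was recovered for 10% of changed genes in data simulated for this comparison, and one of 2 for 38%.

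**Figure D3:**
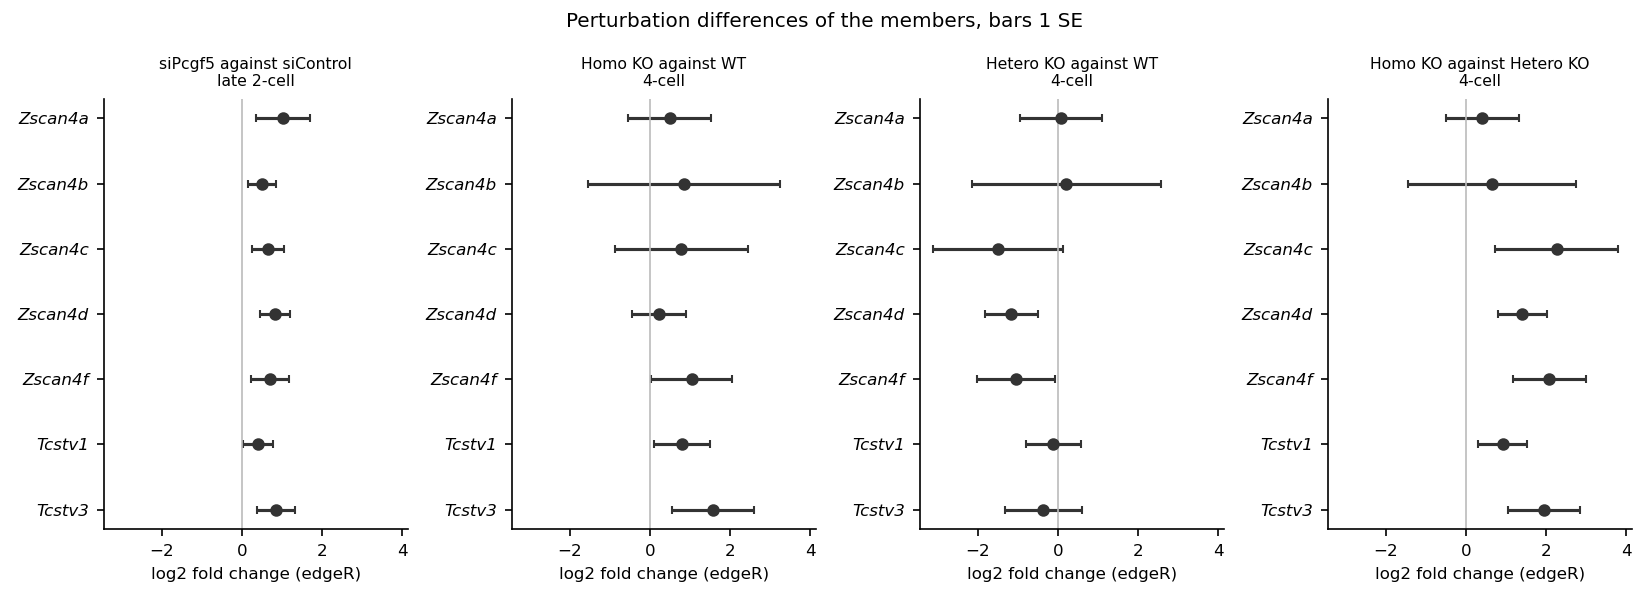
Fitted log2 fold change of each member (edgeR) in siPcgf5 against siControl late 2-cell embryos and in the 3 comparisons of 4-cell knockout groups. Bars show the SE derived from the F test, and 0 is marked by a line. All 7 members are above 0 in the late 2-cell knockdown (0.40 to 1.03) and in Homo KO against Hetero KO (0.41 to 2.26), and none of these values passes the test.

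At the morula no Zscan4 member exceeded 0.52 TPM in either group, while Tcstv1 was at 0.60 to 1.77 TPM and Tcstv3 at 4.27 to 13.3 TPM. Comparing siPcgf5 with siControl morulae, 0 of 7 members were called, as was 0% of all genes (edgeR), and DESeq2 and limma also called 0 of 7. At an unadjusted p under 0.05 stood 2 members, Zscan4d and Zscan4f, beside 716 of 16980 genes. The groups overlapped for all 7, where 31.5% of all genes did not overlap. Zscan4d had 0.52 and 0.13 TPM in siPcgf5 and 0.08 and 0.14 TPM in siControl, with a log2 fold change of 1.39 (SE 0.601, edgeR adjusted p = 1). Zscan4f had 10 assigned counts in siPcgf5 replicate 1, 0 in replicate 2 and 0 in both siControl libraries, with edgeR adjusted p = 1. Pooled over the group, these counts are at least 3.47-fold higher. That value rests on replicate 1 alone, so it is no lower bound for the knockdown.

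Tcstv1 had 1.08 and 1.77 TPM in siPcgf5 and 1.47 and 0.60 TPM in siControl morulae, a log2 fold change of 0.46 (SE 0.444). Tcstv3 had 9.56 and 4.27 TPM in siPcgf5 and 4.94 and 13.3 TPM in siControl, a change of -0.46 (SE 0.495). The difference between the knockdown effects, morula minus late 2-cell, was called for 0 of 7 members and 0% of all genes by edgeR, none of the members had an unadjusted p under 0.05, and DESeq2 and limma called 0 of 7. For Tcstv3 that difference was -1.31 (SE 0.689) and for Zscan4d 0.57 (SE 0.707) on the log2 scale.

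At the 4-cell stage every member, Tcstv3 among them, had its highest mean TPM in Homo KO embryos. Tcstv3 had 100.02, 241 and 127 TPM in Homo KO, 73.0, 28.9 and 23.1 TPM in Hetero KO and 106 and 6.93 TPM in WT embryos. The lowest Homo KO value lay above every Hetero KO value and below that of WT replicate 1 in TPM. In normalised counts all 3 Homo KO libraries lay above both WT libraries for Tcstv3 and for no other member, as they did for 15.1% of all genes. Tcstv1 had 21.1, 42.7 and 39.7 TPM in Homo KO, 34.8, 8.33 and 13.0 TPM in Hetero KO and 35.6 and 6.35 TPM in WT, with all groups overlapping.

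Among the Zscan4 genes, Zscan4f had 17.2, 19.7 and 84.0 TPM in Homo KO, 13.6, 12.1 and 3.30 TPM in Hetero KO and 36.9 and 4.53 TPM in WT embryos. Zscan4c had 16.6, 7.33 and 39.6 TPM in Homo KO, 5.07, 4.33 and 3.88 TPM in Hetero KO and 26.9 and 0 TPM in WT. Zscan4d had 10.7, 21.8 and 23.3 TPM in Homo KO, 7.01, 10.5 and 3.96 TPM in Hetero KO and 30.1 and 3.74 TPM in WT. For these 3 genes every Homo KO library lay above every Hetero KO library, and the range of the WT libraries overlapped both.

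Zscan4a had 10.3, 12.1 and 11.6 TPM in Homo KO, 9.16, 15.9 and 1.57 TPM in Hetero KO and 16.6 and 1.04 TPM in WT. Zscan4b had 0, 0.22 and 2.61 TPM in Homo KO, 1.83, 0 and 0 TPM in Hetero KO and 1.08 and 0 TPM in WT. The groups overlapped for both.

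Homo KO against WT gave 0 of 7 members called, as it gave 0% of 13766 genes (edgeR), with none at an unadjusted p under 0.05 and 0 of 7 called by DESeq2 and by limma. The median log2 fold change was 0.81, against 0.02 over all genes, and the Tcstv3 value was 1.58 (SE 1.02, edgeR adjusted p = 0.575). Without WT replicate 1, Zscan4c alone passed (edgeR adjusted p = 0.0375), against the other WT library, in which it was listed at 0. Hetero KO against WT likewise gave 0 of 7 members and 0% of all genes called by edgeR, none at an unadjusted p under 0.05 and 0 by DESeq2 and limma. The median there was -0.37, with 2 members above 0 and 5 below.

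Homo KO against Hetero KO sets no WT library on either side, though WT libraries entered the shared fit. It gave 0 of 7 members and 0% of all genes called by edgeR and 0 of 7 by DESeq2 and by limma. A fit of only these 6 libraries also called 0 of 7 members, and 3 genes in all. All 7 fitted values were above 0, with a median of 1.40 against -0.01 over all genes. Zscan4d alone of the 7 had an unadjusted p under 0.05, beside 1131 of 13766 genes, with a log2 fold change of 1.40 (SE 0.611, edgeR adjusted p = 0.602). The values were 2.26 (SE 1.53) for Zscan4c, 2.08 (SE 0.915) for Zscan4f and 1.95 (SE 0.893) for Tcstv3. For these 4 genes the groups did not overlap in normalised counts, as for 8.33% of all genes in this direction. The comparisons of the knockout groups share libraries, so their values are not independent of each other.

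The Zscan4 sum was 54.7, 61.1 and 161 TPM in Homo KO, 36.6, 42.8 and 12.7 TPM in Hetero KO and 112 and 9.31 TPM in WT embryos. The Tcstv sum was 121, 284 and 167 TPM in Homo KO, 108, 37.2 and 36.1 TPM in Hetero KO and 142 and 13.3 TPM in WT. As a share of the siControl late 2-cell mean, Homo KO embryos held 6.96% of the Zscan4 sum and 68.0% of the Tcstv sum, and Hetero KO embryos held 2.32% and 21.5% of them. Tcstv3 alone stood at 92.5% of its own siControl late 2-cell mean in Homo KO, 24.7% in Hetero KO and 33.5% in WT, in TPM. The scale matters here. In TMM-scaled CPM the Tcstv3 mean was 84.5 in Homo KO and 72.3 in siControl late 2-cell embryos, so the order turned.

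Late 2-cell markers summed to 288 to 303 TPM in Homo KO, 79.6 to 119.2 TPM in Hetero KO and 30.7 and 233 TPM in WT. Obox3, a homeobox gene of the 2-cell stage, had 127 to 189 TPM in Homo KO, 29.4 to 56.5 TPM in Hetero KO and 110 and 11.7 TPM in WT. Blood markers summed to 206 to 305 TPM in Homo KO, 63.5 to 175 TPM in Hetero KO and 66.7 and 185 TPM in WT. Nearly all of that sum was Hba-a2, an alpha globin, while the beta globins Hbb-bs and Hbb-bt and the leukocyte gene Ptprc were at 0 in every 4-cell library. Cumulus and granulosa cell markers summed to 5.18 to 13.6 TPM in Homo KO, 1.40 to 2.00 TPM in Hetero KO and 1.38 and 2.45 TPM in WT. Sperm markers summed to 8.71 to 10.4 TPM in Homo KO, 4.97 to 5.66 TPM in Hetero KO and 5.19 and 6.66 TPM in WT. For these lists, as for the late 2-cell and blood markers, every Homo KO sum lay above every Hetero KO and WT sum. Single genes did not all go this way. In Homo KO against WT, 2 of 6 sperm markers were tested, Tnp1 (2.95, SE 1.48) and Prm2 (-1.78, SE 1.38). Of 11 cumulus and granulosa cell markers 3 were tested, and all 3 were above 0. Of 4 late 2-cell markers 3 were above 0, and Tdpoz4 was below it (-0.21, SE 0.510). Oocyte markers summed to 2440 to 4635 TPM in Homo KO, 1574 to 7774 TPM in Hetero KO and 2365 and 2586 TPM in WT. The part of these levels in the members' values was not tested.

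Within the Zscan4 sum, the makeup was alike in the 4 late 2-cell libraries. Zscan4f held 41.0% to 50.0% of the summed TPM, Zscan4c 25.0% to 27.6%, Zscan4d 16.8% to 23.0%, Zscan4a 4.92% to 8.86% and Zscan4b 1.84% to 3.10%. The mean share of Zscan4f was 44.5% in siPcgf5 and 46.3% in siControl. At the 4-cell stage the shares spread more widely. Zscan4f held 26.0% to 52.1% over the 8 libraries, Zscan4d 14.5% to 40.2%, Zscan4c 0% to 30.5% and Zscan4a 7.22% to 37.1%, so that Zscan4a was above its late 2-cell range in 7 of 8 libraries. How RSEM divided reads that match several copies can bear on these shares, and this was not tested.

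**Figure D4:**
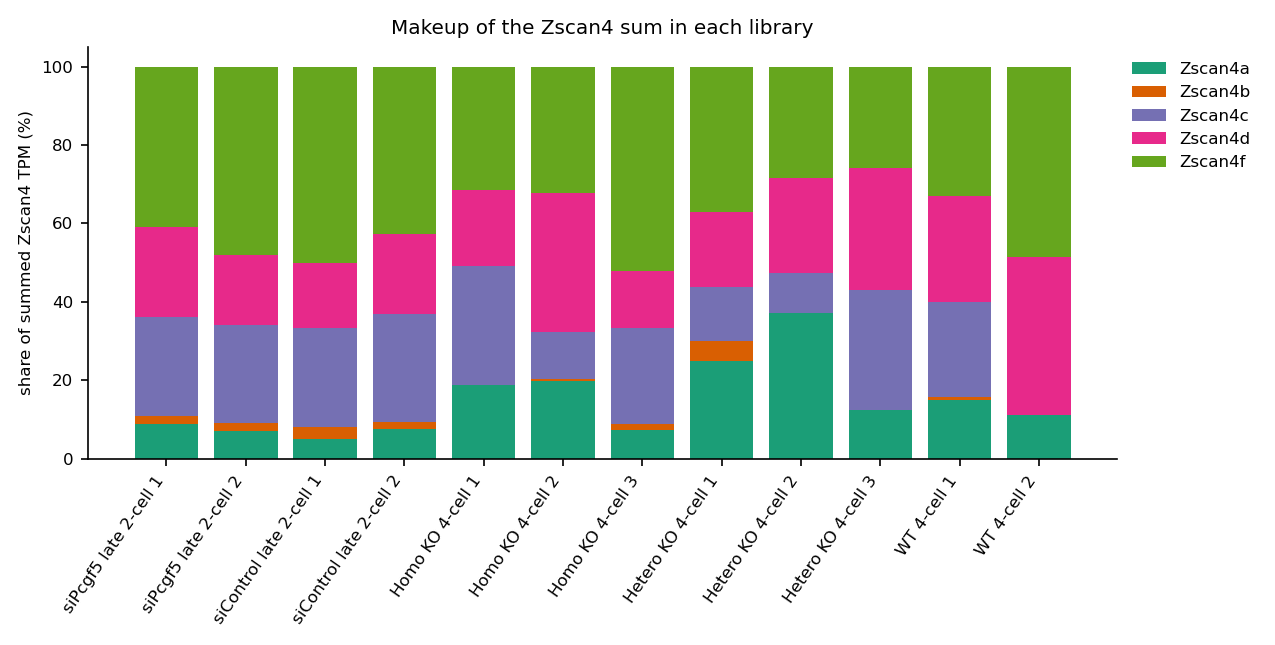
Share of each Zscan4 member in the summed Zscan4 TPM, in percent, with 1 bar per library that had at least 100 Zscan4 counts. Zscan4f is the largest part of the late 2-cell bars, at 41.0% to 50.0%, and the 4-cell bars vary, with Zscan4a between 7.22% and 37.1%.

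Tcstv3 held 53.6% to 74.6% of the Tcstv sum at the late 2-cell stage, 52.2% to 85.0% at the 4-cell stage and 70.7% to 95.7% at the morula. In the 4-cell libraries its mean share was 81.2% in Homo KO, 69.8% in Hetero KO and 63.5% in WT. Over all 16 libraries, Zscan4d and Zscan4f ran most closely together among the members (Pearson r = 0.991, log2 CPM), and Zscan4b with Tcstv3 least (r = 0.76). These correlations are descriptions across libraries that differ mainly in stage.

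Of 12 further genes looked up beside the 2 families, the files list 4. Whether these 4 are related to the families by sequence was not tested. AF067061 (chr13:120263095-120264517) and BC147527 (chr13:120300233-120308843) lie between Tcstv1 and Tcstv3. Like the Tcstv genes, they were high at the late 2-cell stage and low at the morula. Reads may be shared between them and the Tcstv members, which was not tested. The Tcstv sum was not a whole count in siControl late 2-cell embryos, at 5152.27 and 3222.84. AF067061 had 198 and 245 TPM in siPcgf5 and 123 and 164 TPM in siControl late 2-cell embryos, and 2.41 and 0 TPM in siPcgf5 and 0.35 and 1.10 TPM in siControl morulae. BC147527 had 123 and 225 TPM in siPcgf5 and 77.0 and 121 TPM in siControl late 2-cell embryos, and 5.10 and 0.45 TPM in siPcgf5 and 1.00 and 4.87 TPM in siControl morulae. The fall in siControl was -6.60 (SE 1.33, edgeR adjusted p = 0.00469) for AF067061 and -4.07 (SE 1.19, edgeR adjusted p = 0.0262) for BC147527 on the log2 scale.

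Neither was called in siPcgf5 against siControl late 2-cell embryos, at 0.75 (SE 1.01) for AF067061 and 0.90 (SE 1.05) for BC147527. At the 4-cell stage BC147527 had 44.9, 75.1 and 36.3 TPM in Homo KO, 24.5, 7.09 and 4.96 TPM in Hetero KO and 54.5 and 4.33 TPM in WT. Its log2 fold change in Homo KO against Hetero KO was 2.15 (SE 0.914, edgeR adjusted p = 0.605), and that of AF067061 was 1.51 (SE 0.860). The other 2 listed genes are not placed in either cluster. D5Ertd577e, without a location in the RefSeq table, had 118 and 101 TPM in WT 4-cell and 18.1 and 49.5 TPM in siControl late 2-cell embryos. This was a rise of 2.01 (SE 0.421, edgeR adjusted p = 0.00201). Gm20765, on chromosome 10, was listed at 0 in all 16 libraries.

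Of 26 other genes of the 2-cell programme, such as the Usp17l and Tdpoz genes, 24 were listed and tested. The Usp17l genes, too, are close copies, so reads may be shared among them. In siControl morulae against siControl late 2-cell embryos 16 fell and 1 rose, where 28.1% of all genes fell and 24.9% rose. The median log2 fold change was -2.36 against -0.34 over all genes. The falls with the smallest p were those of Usp17la (log2 fold change -7.71, SE 0.648), Usp17lc (-4.37, SE 0.417), Mbd3l2 (-4.51, SE 0.428) and Usp17ld (-4.14, SE 0.436). In siPcgf5 against siControl late 2-cell embryos none was called by edgeR, DESeq2 or limma, and the median of 0.23 stood beside -0.01 over all genes. By edgeR 1 had an unadjusted p under 0.05 (Usp17lc, 0.84, SE 0.356), beside 947 of 16980 genes.

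Homo KO embryos against WT, and against Hetero KO, also gave 0 calls by edgeR among these 24. Their medians were 0.93 and 0.63, against 0.02 and -0.01 over all genes. At an unadjusted edgeR p under 0.05 stood 4 and 6 of the 24, beside 1701 and 1131 of 13766 genes. DESeq2 called 2 of the 24 in Homo KO against WT, both higher, and 0 in Homo KO against Hetero KO, and limma called 0 in both. Of all genes, DESeq2 called 237 higher and 96 lower in Homo KO against WT. The genes with the smallest p in Homo KO against Hetero KO were Abcb5 (0.66, SE 0.189), Spz1 (0.77, SE 0.233), Cml2 (1.88, SE 0.570) and Zbed6 (1.85, SE 0.652), with edgeR adjusted p between 0.453 and 0.518. Usp17lc, a deubiquitinase gene of the 2-cell stage, had 21.7 to 36.7 TPM in Homo KO, 1.70 to 5.55 TPM in Hetero KO and 31.5 and 0.40 TPM in WT.

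Factors known to switch on the 2-cell programme were tested as a list of 13 genes. Dux, the homeobox factor upstream of Zscan4 in mouse cells, was at 0.23 and 0.58 TPM in siPcgf5 and 0.22 and 1.34 TPM in siControl late 2-cell embryos and at most at 0.13 TPM in any later library. In siControl morulae against siControl late 2-cell embryos 3 of the 13 rose and 5 fell, with a median of -0.08, where 24.9% of all genes rose and 28.1% fell, with a median of -0.34. The share that rose was thus near that of all genes. Among them were Obox5 (-8.82, SE 0.610), Klf17 (-2.77, SE 0.417) and Zfp281 (-1.63, SE 0.238), which fell, and Tbx3 (3.60, SE 0.295), which rose. In WT 4-cell against siControl late 2-cell embryos, where 17.5% of all genes rose and 15.2% fell, 4 rose, among them Dppa2 (1.64, SE 0.296), and 2 fell, among them Obox3 (-4.79, SE 1.15).

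None of the 13 was called by edgeR or limma in siPcgf5 against siControl late 2-cell embryos, where their median was 0.22, and DESeq2 called 1 as higher. Of all 16980 genes, DESeq2 called 27 higher and 45 lower there. Tbx3, a T-box factor linked to Zscan4 expression in mouse embryonic stem cells, had 2.93 and 3.03 TPM in siPcgf5 and 1.14 and 1.46 TPM in siControl, a log2 fold change of 1.31 (SE 0.275, edgeR adjusted p = 0.390). It was the 1 gene of the list with an unadjusted p under 0.05. In Homo KO against Hetero KO, Nelfa, a subunit of the negative elongation factor that promotes the 2-cell state in mouse embryonic stem cells, had a value of 0.81 (SE 0.212, edgeR adjusted p = 0.421), and Obox3 had 1.99 (SE 0.650, edgeR adjusted p = 0.518). The nuclear receptor gene Nr5a2 went the other way, at -0.55 (SE 0.247, edgeR adjusted p = 0.602). These were the 3 of 12 tested genes with an unadjusted p under 0.05, beside 1131 of 13766 genes, and none was called by edgeR. Over the 12, 6 values were above 0 and 6 below, with a median of -0.05 against -0.01 over all genes. DESeq2 called 1 of the 12 as higher and limma 0, where DESeq2 called 89 of all genes higher and 22 lower.

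Of 26 genes known to hold the 2-cell programme down, 12 rose and 7 fell in siControl morulae against siControl late 2-cell embryos, with a median of 0.67, beside 24.9% and 28.1% of all genes and a median of -0.34. The share that fell was near that of all genes. With limma on log2(TPM + 1) the balance turned, at 9 higher, 11 lower and a median of -0.28. Trim28, a corepressor of retroviral elements, rose by 2.84 (SE 0.231) and the zinc-finger gene Zfp42 by 2.36 (SE 0.253), while Pcgf6, the Polycomb subunit of another variant complex, fell by 2.22 (SE 0.227). WT 4-cell against siControl late 2-cell embryos showed 12 higher and 2 lower, beside 17.5% and 15.2% of all genes, with Ncl, the nucleolar protein nucleolin, at 1.87 (SE 0.176) and the demethylase gene Kdm1a at 2.17 (SE 0.246). In siPcgf5 against siControl late 2-cell embryos edgeR, DESeq2 and limma called none of the 26, the median was 0.08, and 1, Max, had an unadjusted p under 0.05 (-0.66, SE 0.277).

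Among 17 tested telomere genes, 7 rose and 1 fell in siControl morulae against siControl late 2-cell embryos, with a median of 0.70, beside 24.9% and 28.1% of all genes and a median of -0.34, but with limma 1 rose and 4 fell, with a median of -0.28. The named genes were Tet2 at 4.33 (SE 0.420), Dnmt3b at 1.76 (SE 0.400) and the meiotic cohesin gene Smc1b at -1.55 (SE 0.357). None of these 17 was called by edgeR, DESeq2 or limma in siPcgf5 against siControl late 2-cell embryos, where the median was -0.07, and by edgeR 1, Pot1b, had an unadjusted p under 0.05 (0.96, SE 0.350).

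Genes whose level ran most like the members' over the 16 libraries were sought among 6896 genes with at least 10 CPM in siControl late 2-cell embryos. To the mean Zscan4 profile these were Gyg, which primes glycogen synthesis (Pearson r = 0.983 on log2 CPM), Pdzph1 (0.981), the secretory granule gene Scg3 (0.977), the mRNA decapping enzyme gene Dcp2 (0.977), the inositol phosphate kinase gene Ipmk (0.975) and the kinesin gene Kif17 (0.975). Another 1 predicted gene stood among them. To the mean Tcstv profile these were Crabp1, a carrier of retinoic acid (0.975), the transketolase-like gene Tktl1 (0.961), the RNA-binding protein gene Nanos1 (0.961), Tnfrsf23 (0.961), Gyg (0.961) and Sec16a, of the endoplasmic reticulum's exit sites (0.960), with 2 predicted genes among them.

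The libraries differ mainly in stage, so these likenesses describe the course over development. Gyg had 206 and 197 TPM in siPcgf5 and 305 and 167 TPM in siControl late 2-cell embryos, 50.5, 48.4 and 51.4 TPM in Homo KO, 39.8, 34.0 and 17.7 TPM in Hetero KO and 53.2 and 8.42 TPM in WT 4-cell embryos. Crabp1 had 35.4, 78.5 and 90.9 TPM in Homo KO, 15.8, 6.30 and 5.26 TPM in Hetero KO and 35.0 and 1.25 TPM in WT. Its lowest Homo KO value was thus close to that of WT replicate 1. Both genes were picked for likeness over these same libraries, so a 4-cell pattern shared with the members is no separate result.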

How the data were processed

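Libraries of polyadenylated RNA were made by the authors with the SMART-Seq v4 PLUS kit, as the labels' protocols state. Each deposited file holds an RSEM expected count per gene, not normalised by the authors, and TPM computed by RSEM, per the file headers. STAR 2.7.10 and RSEM 1.3.3 with mm10 are among the names in the submitters' processing notes. Strand settings and read filters are not given in the sources used here. The 4 H2AK119ub1 chromatin libraries were not used here.

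Expected counts were rounded to whole numbers, and genes were kept by filterByExpr (minimum count 10), scaled by TMM. The two-sided test was the robust quasi-likelihood F test of edgeR 4.0.16 in R 4.3.3, with p-values adjusted by Benjamini-Hochberg over all genes and called under 0.05. Each SE printed beside a log2 fold change is the absolute fold change divided by the square root of F. It was derived here, is not given by edgeR, and is unreliable where counts are near 0. The 8 knockdown libraries (16980 genes) and the 8 4-cell libraries (13766 genes) were fitted apart, with 1 coefficient per group. Stage comparisons with WT used all 16 libraries (16669 genes). Common coefficients of variation were 0.460, 0.517 and 0.514. Levels are the deposited TPM, with sums and shares computed from them and no test. The floor of 3 counts over a group covers counting error only, since PCR copies are not independent molecules. Reads that RSEM assigned to another copy are not covered either. Counts of groups that do not overlap use TMM-scaled CPM, and correlations use log2 CPM with a prior count of 2. Promoters were compared with Biopython 1.88. Of 24411 symbols, 23194 matched the RefSeq table of GRCm38.p6.

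The members, lists and comparisons were chosen with earlier results of these data known. The naming rule took all 7 members, Pcgf5 and the 4 listed genes looked up beside the families. It also took up to 4 genes of each list with the smallest p per comparison, and the 6 genes most alike to each family. Dux, Obox3 in TPM, Hba-a2, and the TPM of Gyg, Crabp1 and Usp17lc were added after their values were seen. On simulated data, edgeR recovered 10%, 38%, 58% and 60% of genes changed by 1, 2, 3 and 4 on the log2 scale in siPcgf5 against siControl late 2-cell, and 4%, 32%, 52% and 70% in Homo KO against WT.

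Alternatives were the Wald test of DESeq2 1.42.0, its size factors within edgeR, limma 3.58.1 (trend) on log2(TPM + 1), keeping genes with any count, a replicate block, fitting only the groups compared, and leaving out each library in turn, where a lone library is assumed to vary like the other groups.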

Additional observations from a re-analysis of the deposited data

How the results depend on the processing

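Of the recomputed counts of members called, 100 were within 1.5 times the reported one and 7 were not. In WT 4-cell against siControl late 2-cell it was 7 with limma on log2(TPM + 1) and 1 to 6 with a library left out. In siControl morula against WT 4-cell it was 3 with only the groups compared and 2 to 5 with a library left out, and in Homo KO against WT 0 to 1. The cause was not tested. The replicate number as a block gave 7 members lower in both morula comparisons with the late 2-cell stage, 4 in WT 4-cell against siControl late 2-cell (where Zscan4c passed at an edgeR adjusted p of 0.04998), 5 in siControl morula against WT 4-cell and 0 in the other comparisons. Deviations of same-numbered libraries correlated between -0.129 and 0.168, so the numbers are not taken to pair libraries.

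Of the recomputed log2 fold changes of members, 670 kept their direction and side of the threshold, 14 passed newly, 13 no longer passed and 52 turned round in sign. Those that turned round had not passed as reported, except Zscan4c in siControl morula against WT 4-cell, which ran from -8.01 to 5.10 with a library left out. In siPcgf5 against siControl morula, Zscan4a, reported at 0.00, was -0.0074 with no filter, -0.14 with DESeq2 and with only the groups compared (-0.1417 and -0.1404), -0.0063 with limma and -0.10 with the replicate block. In the difference of the knockdown effects, limma gave -0.38 for Zscan4b, -0.50 for Zscan4d, -0.45 for Zscan4f and -0.0063 for Tcstv1. In Hetero KO against WT, limma gave -0.028 for Zscan4b, 0.034 for Zscan4c, 0.029 for Tcstv1 and 0.37 for Tcstv3, and the replicate block gave 0.043 for Tcstv1 and 0.22 for Tcstv3.

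With each library left out in turn, further log2 fold changes crossed 0. In Homo KO against WT, Zscan4a ran from -0.43 to 3.32, Zscan4b from -2.25 to 7.19, Zscan4c from -0.24 to 12.14, Zscan4d from -0.59 to 2.17 and Zscan4f from -0.029 to 2.99. In Hetero KO against WT, Zscan4a ran from -0.83 to 2.91, Zscan4b from -6.34 to 6.55, Zscan4c from -2.50 to 9.88, Zscan4d from -1.99 to 0.77, Zscan4f from -1.86 to 0.91, Tcstv1 from -0.85 to 1.40 and Tcstv3 from -1.28 to 2.42. In Homo KO against Hetero KO, Zscan4a ran from -0.074 to 1.12 and Zscan4b from -2.46 to 7.20. In siPcgf5 against siControl morula, Zscan4a ran from -5.92 to 5.94, Zscan4c from -5.51 to 0.86, Tcstv1 from -0.052 to 1.27 and Tcstv3 from -1.10 to 0.42. In the difference of the knockdown effects, Zscan4a ran from -6.95 to 4.91, Zscan4b from -0.50 to 2.87, Zscan4c from -6.16 to 0.22, Zscan4d from -0.62 to 1.31, Zscan4f from -0.70 to 5.87 and Tcstv1 from -0.45 to 0.87. Tcstv3 in siControl morula against WT 4-cell ran from -2.71 to 0.97. The cause was not tested. No member's sign turned in siPcgf5 against siControl late 2-cell. Fits against a library at 0 depend on the prior count. DESeq2 size factors put the median of all genes at -0.52 in siControl morula against siControl late 2-cell (-0.34 as reported) and in WT 4-cell against siControl late 2-cell (-0.33 as reported). Of all genes called, limma gave 2474 higher and 7431 lower against 4220 and 4766 reported in siControl morula against siControl late 2-cell, 2389 and 5229 against 2916 and 2526 in WT 4-cell against siControl late 2-cell, and 1673 and 3591 against 2492 and 2550 in siControl morula against WT 4-cell.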
